A study of Mus musculus with 8 samples.

Results

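The mitochondrial ribosomal protein genes were taken as all genes whose GENCODE M21 symbol starts with Mrpl or Mrps followed by a digit, with counts summed over the isoforms of each gene. The deposited table held 78 such genes among 18301, and all 78 passed the filter on low counts that left 12898 genes tested. GENCODE M21 holds 83 symbols of this form, and the 5 not in the table are processed pseudogenes. The rule uses symbols and no measured value, but it was set with earlier results of these data known. The 78 genes lie on 17 chromosomes. By the roles known from the structure of the mammalian mitochondrial ribosome, 51 encode proteins of the large subunit and 26 proteins of the small subunit. Mrps18a and Mrps30 are named for the small subunit and sit in the large one. Mrps36 is no ribosomal protein and belongs to the 2-oxoglutarate dehydrogenase complex, and it is kept here because the rule includes it.

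The mitochondrial ribosome translates the few mRNAs encoded in mitochondrial DNA, all of which specify subunits of oxidative phosphorylation. Its RNAs are transcribed inside the organelle, but its proteins are encoded in the nucleus, made by cytosolic ribosomes and imported. Their mRNAs are therefore clients of the cytosolic initiation machinery, in which Eif4g1 and Eif4g3 encode scaffold proteins that join the cap-binding protein to the small ribosomal subunit. Some proteins of this ribosome have bacterial counterparts, here 48, and 29 are specific to mitochondria.

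The study compared double-knockout neurons (DKO, Eif4g1 and Eif4g3) with wildtype neurons (WT), both at day 8 in vitro after differentiation from CGR8 cells, a mouse embryonic stem cell line grown without feeder cells. There were 2 libraries each of DKO footprints, WT footprints, DKO total RNA and WT total RNA. Both genotypes received cycloheximide at 100 µg/ml for 5 minutes, which stops translating ribosomes. Footprints are the mRNA fragments that ribosomes protect from nuclease, and total RNA gives the transcript level. The labels do not say how the alleles were made or how many clones stand behind a genotype. The footprint and RNA libraries of a genotype and replicate number share a code in the labels, with some doubt for DKO replicate 2. Each such pair is called a culture here, but the labels do not state that both libraries came from 1 culture. On this reading 4 cultures stand behind the 8 libraries. In 3 of the 4 the code is a letter c with numbers, WT replicate 1 among them, while WT replicate 2 is coded WT alone. What the codes stand for is not stated. The p-values thus reflect how these libraries vary, which may be technical.

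Depth was 10490535 to 19753419 estimated counts in footprints and 14762047 to 44786643 in RNA. A single gene of the 78 had 207 to 2865 counts in a footprint library and 217 to 5996 in an RNA library. WT replicate 2, the culture with the differing kind of code, was set off from the other cultures in both assays along the first principal component of their assay, which held 56% of the variance in footprints and 56.4% in RNA. In RNA, the summed level of 7 fibroblast, mural and endothelial markers was 217.2 and 83.2 CPM in DKO, against 171.7 and 450.4 CPM in WT, and the sum of 5 astrocyte markers was 392.9 and 420.9 CPM in DKO, against 383.5 and 621.9 CPM in WT (CPM, counts scaled to library size with TMM factors). All 7 neuron markers were present, but the cortical markers Tbr1, Emx1 and Fezf2 and the glutamatergic marker Slc17a7 were near 0, while Slc17a6, Gad1, Gad2 and Slc32a1 were present. Eif4g1 was at 153.8 and 287.5 CPM in DKO footprints, against 299.8 and 263 CPM in WT footprints, and at 125.4 and 304.9 CPM in DKO RNA, against 288.3 and 279.9 CPM in WT RNA. Eif4g3 was at 164.4 and 172.5 CPM in DKO footprints, against 168.6 and 153.3 CPM in WT footprints, and at 102.9 and 138.5 CPM in DKO RNA, against 120.1 and 128.3 CPM in WT RNA. Eif4g1 was thus below both WT values in the libraries labelled DKO replicate 1 alone, and the DKO and WT values of Eif4g3 overlapped in both assays. Counts of whole genes do not show whether the alleles are disrupted, so DKO and WT stand here for the labels.

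Some of these mRNAs have the same letters around the start codon. The TISU element, whose ATG is the start codon, is known from mammalian cells for initiation on very short 5′ UTRs without scanning, and it overlaps the binding site of the transcription factor YY1. A single spelling close to it, which begins with AAGATGGCG and is given in full in capitals below, was searched on the transcript strand alone, at the start codon of the coding isoform with the most RNA counts. It was found in 6 of 76 genes with a complete start codon (7.89%), against 141 of 12490 of all genes tested (1.13%). The 23 letters around these 6 starts are shown because the spelling was more frequent here than over all genes tested, although most of the 76 genes lack it.
Mrpl35: aggctgcAAGATGGCGGCttcca
Mrpl38: tgggggaAAGATGGCGGCgccct
Mrpl46: agacagaAAGATGGCGGCgcccg
Mrps10: gggcaccAAGATGGCGGCgcgcg
Mrps18a: gcgttccAAGATGGCGGCcctca
Mrps27: gcgctccAAGATGGCGGCtccca
The sequences come from the GENCODE M21 transcripts (GRCm38) and are read 5′ to 3′. The 5′ UTRs of these 6 isoforms were 16 nt in Mrps10, 17 nt in Mrps27, 32 nt in Mrps18a, 52 nt in Mrpl35, 61 nt in Mrpl46 and 91 nt in Mrpl38. By the TISU consensus itself, which allows C or G at 2 positions and was searched after seeing the data, the count was also 6 of 76 genes (7.89%, against 134 of 12490, 1.07%). These were Mrpl35, Mrps10, Mrps18a and Mrps27 from the lines above, with Mrpl1 and Mrps14, while Mrpl38 and Mrpl46 do not match the consensus. Mrps24 shares the first 9 letters alone, and with it 7 genes hold AAGATGGCG at the start (9.21%, against 2.39% of all genes tested). A purine stood 3 bases before the start codon in 72 of 76 genes (94.7%), against 85.4% of all genes tested.

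The mRNAs were short. The median 5′ UTR was 74 nt, the median coding sequence 576 nt and the median 3′ UTR 319 nt, against 171, 1341 and 1021 nt over all genes tested. RefSeq promoter windows of 300 bases around the start site (GRCm38.p6) were matched for 69 of the 78 genes. Searched on both strands, the NRF1 palindrome was in 3 of these (4.35%, against 2.34% of the genes tested with a window), the ETS motif CCGGAAGT in 12 (17.4%, against 8.74%), the YY1 site with the letters capitalised above in 5 (7.25%, against 1.7%) and TATAAA in 5 (7.25%, against 8.49%). In Mrpl35, Mrps18a and Mrps27 the YY1 match is the same stretch of bases as at the start codon above. The YY1 count is therefore not separate from the start-codon count. NRF1 and the ETS factor GABP are known regulators of nuclear genes for mitochondrial proteins. A match describes letters and not binding.

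In total RNA the genes lay within a narrow range of levels. Per kilobase of transcript, the mean over the 4 RNA libraries had a median of 79.3 TPM (a transcript's length-scaled share of its library) over the 78 genes. It ran from 18.3 ± 0.977 TPM for Mrpl35 to 277 ± 20.4 TPM for Mrpl33 (SD, n = 4 libraries of both genotypes), a 15.1-fold range. The 90th percentile was 4.60 times the 10th, against 49.5 times over all genes tested. After Mrpl33 the highest levels were Mrpl30 at 246.5 ± 39.5 TPM, Mrpl48 at 245.5 ± 5.66 TPM, Mrpl20 at 215.5 ± 12.98 TPM and Mrps21 at 199 ± 13.2 TPM. These neighbours in the order lie within 1 or 2 SD of each other and their order is not resolved, apart from Mrpl48 above Mrpl20. The place of Mrpl48 rests on the assignment to isoforms. Of its RNA, 72.6% was assigned to isoforms not annotated as protein-coding, mainly of 706 and 834 nt, while its coding isoform with the most RNA has 4285 nt. Over the longest coding transcript of each gene Mrpl48 had 65.2 ± 2.08 TPM and stood at rank 46 of 78, and Mrpl30 had 128.8 ± 14.4 TPM at rank 19, while Mrpl33, Mrpl20 and Mrps21 led. Mrps16 at 23.3 ± 3.14 TPM, Mrps30 at 23.7 ± 1.51 TPM, Mrps27 at 26.4 ± 1.74 TPM and Mrps2 at 27.8 ± 1.69 TPM were the lowest after Mrpl35. The median was 78.7 TPM in the large subunit and 86.7 TPM in the small subunit.

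Footprints per kilobase of the longest coding sequence, a measure chosen after seeing the data, ran from 30.4 ± 4.41 CPM per kb for Mrpl1, a protein of the flexible stalk beside the tRNA exit site, to 534 ± 55.5 CPM per kb for Mrps21 (SD, n = 4 libraries of both genotypes). The median was 116 CPM per kb over the 77 genes with a coding isoform in the table. The 90th percentile was 5.21 times the 10th, against 93.2 times over all genes tested.

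The genotype comparison asks whether these mRNAs differed in footprints or level between neurons labelled DKO and WT. None of the 78 genes was called higher or lower in DKO than in WT footprints. The summed level was 5931 and 5923 CPM in the DKO footprint libraries, against 5991 and 5845 CPM in the WT ones. The DKO sums lie between the WT sums. The log2 fold changes ran from -0.21 for Mrps36 to 0.22 for Mrps34, with a median of 0.0065 (all genes tested 0.0028) and a median SE of 0.10, and 40 of 78 were above 0 (51.3%, against 50.8%). No gene of the 78 had an unadjusted p under 0.05, against 5.62% of all genes tested, and the smallest adjusted p was 0.849 (edgeR quasi-likelihood test, Benjamini-Hochberg over all genes tested). Over all genes tested 0.00775% were called higher and 0.0% lower, so calls were rare everywhere. Without both libraries of DKO replicate 2, in which Eif4g1 was not below both WT values, none was called either, and the median was 0.00083.

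**Figure D1:**
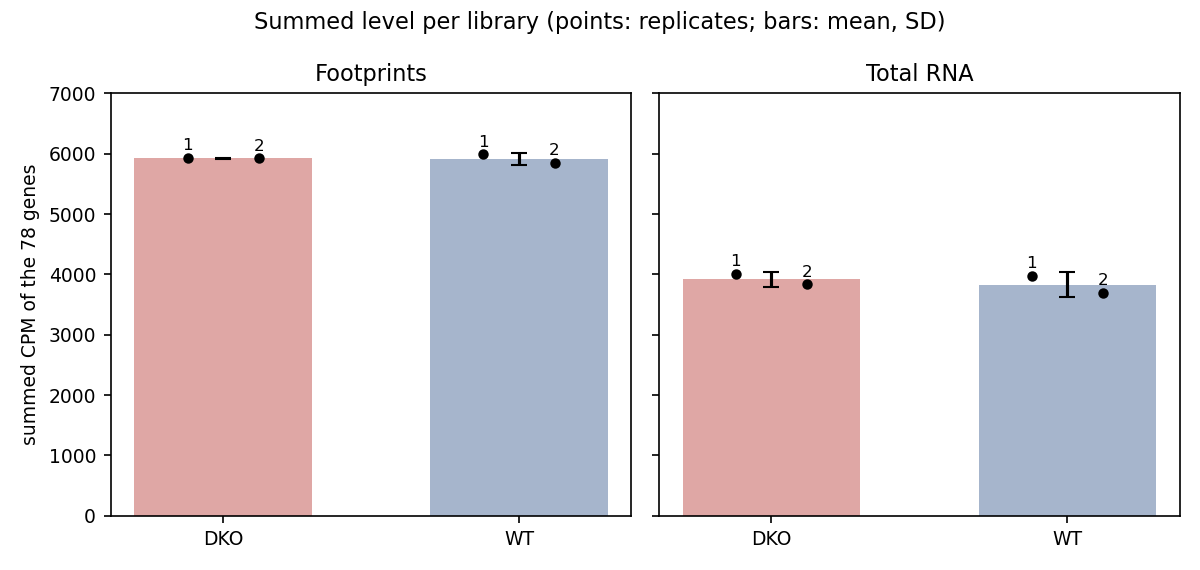
Summed level of the 78 genes in each library in CPM, footprints on the left and total RNA on the right. Points are the 2 replicates with their numbers, bars the mean and whiskers the SD. Footprint sums lie between 5845 and 5991 CPM and RNA sums between 3688 and 4009 CPM, with DKO and WT overlapping in both assays.

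Mrps34, a small-subunit protein whose human gene is mutated in a mitochondrial disease, had 58.5 and 60.3 CPM in DKO footprints, against 49.9 and 52.0 CPM in WT footprints. Both DKO values lay above both WT values, and the fitted log2 difference was 0.22 ± 0.10 (SE, adjusted p = 0.849 in edgeR). Its locus overlaps Nme3 on the same strand and Mapk8ip3 on the other, so its counts are uncertain. Mrps18b, 1 of 3 proteins related to bacterial S18, stood at 43.3 and 43.0 CPM in DKO footprints, against 37.9 and 36.3 CPM in WT footprints. That gave 0.22 ± 0.11 on the log2 scale (adjusted p = 0.849, edgeR). At the other end Mrpl44, which has a fold related to ribonuclease III, stood at 35.2 and 35.3 CPM in DKO footprints, against 39.9 and 40.2 CPM in WT footprints. Both DKO values lay below both WT values, at -0.19 ± 0.11 on the log2 scale (edgeR, adjusted p = 0.852). Mrps36 had 62.5 and 80.2 CPM in DKO footprints, against 88.0 and 78.3 CPM in WT footprints, and the groups overlapped. Its value of -0.21 turned to 0.087 when only isoforms annotated as protein-coding were counted.

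Both DKO values lay above both WT values in footprints for 11 of 78 genes (14.1%, against 16.3% of all genes tested) and below both for 15 (19.2%, against 16.2%). These shares are near those of all genes tested. Also among the 4 smallest p in their direction were Mrpl12, the stalk protein that contacts translation factors, at 0.19 ± 0.11, Mrps10 at 0.17 ± 0.10 and Mrpl42 at -0.16 ± 0.10 on the log2 scale, with adjusted p of 0.852 to 0.853 (edgeR).

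In total RNA none of the 78 genes was called either (all genes tested 0.0155% higher and 0.0% lower). The summed level was 4009 and 3835 CPM in DKO RNA, against 3973 and 3688 CPM in WT RNA, so the groups overlapped. The log2 fold changes ran from -0.16 for Mrps28 to 0.26 for Mrps12, with a median of 0.047 (all genes tested -0.0015) and a median SE of 0.10. They were above 0 for 58 of 78 genes (74.4%, against 49.6% of all genes tested). The share was larger in 76 cytosolic ribosomal protein genes (93.4%, median 0.10) and in 25 assembly and rRNA modification factors (88%). It was smaller in 79 oxidative phosphorylation genes (48.1%), 14 mitochondrial translation factors (50%), 16 mitochondrial aminoacyl-tRNA synthetases (68.8%) and 5 further subunits under other symbols (60%). Without the RNA library of WT replicate 2, the library that stands apart, the median was -0.011 and 33 of 78 were above 0. Without that of WT replicate 1 it was 0.13, against 0.040 over all genes tested. Without both libraries of DKO replicate 1 the median was 0.017 and 44 of 78 were above 0. Without those of DKO replicate 2 it was 0.081 and 60 of 78 were above 0. The positive lean in RNA therefore depended on WT replicate 2, and it also shrank without DKO replicate 1. The RNA sum was lowest in WT replicate 2, at 3688 CPM, and highest in DKO replicate 1, at 4009 CPM. WT replicate 2 also had the highest summed glial, fibroblast and proliferation markers, though not for every single marker. The part of those markers in the value was not tested.

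Mrps18b was the only gene of the 78 with an unadjusted p under 0.05 in RNA (1.28%, against 5.57% of all genes tested). It stood at 33.7 and 33.1 CPM in DKO RNA, against 31.1 and 25.8 CPM in WT RNA, a difference of 0.24 ± 0.11 on the log2 scale (adjusted p = 0.851 in edgeR). Mrps12, a protein of the decoding site, had 21.8 and 20.7 CPM in DKO RNA, against 19.0 and 16.6 CPM in WT RNA. Both DKO values of these 2 genes lay above both WT values, and WT replicate 2 was the lowest library for each. Mrps12 gave 0.26 ± 0.12 (adjusted p = 0.851, edgeR). Mrps28 had 19.4 and 18.3 CPM in DKO RNA, against 20.9 and 21.3 CPM in WT RNA, which gave -0.16 ± 0.10 (adjusted p = 0.855, edgeR). Both DKO values lay above both WT values for 14 of 78 genes (17.9%, against 19.6% of all genes tested) and below both for 10 (12.8%, against 18.9%).

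In 4 genes both DKO values lay above both WT values in footprints and in RNA alike, namely Mrps10, Mrps12, Mrps18b and Mrps34, and in Mrpl51 both lay below. Over all genes tested 7.05% did the first and 6.69% the second, so 4 and 1 of 78 are not many.

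**Figure D2:**
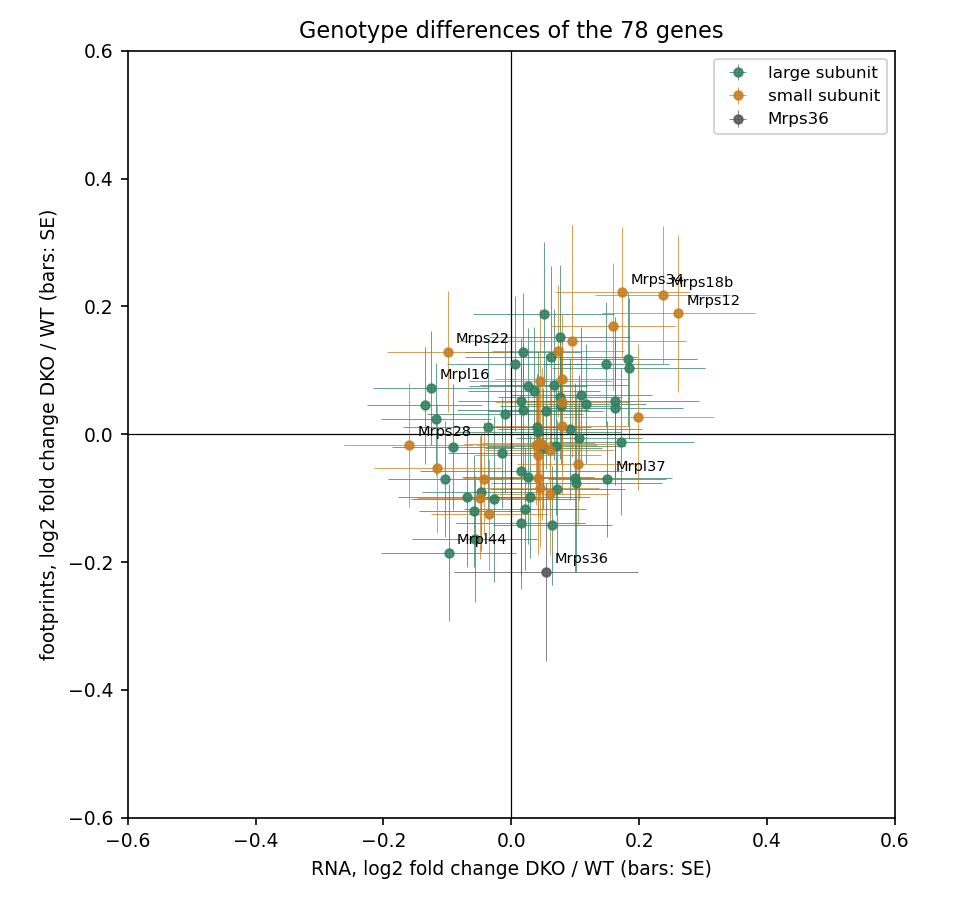
Fitted log2 fold change of DKO over WT in total RNA (x axis) and in footprints (y axis) for the 78 genes, coloured by subunit, with SE as bars. The values run from -0.21 to 0.22 in footprints and from -0.16 to 0.26 in RNA.

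Translational efficiency, the change in footprints relative to RNA, was tested as the interaction of assay and genotype. None of the 78 genes was called (all genes tested 0.0% in either direction). The log2 values ran from -0.27 for Mrps36 to 0.23 for Mrps22, with a median of -0.048 (all genes tested 0.011) and a median SE of 0.14. They were above 0 for 26 of 78 (33.3%, against 53.1%). The share was smaller in cytosolic ribosomal protein genes (6.58%, median -0.11) and 43% in oxidative phosphorylation genes. It was between 56% and 80% in the assembly factors, translation factors, synthetases and further subunits named above. No gene of the 78 had an unadjusted p under 0.05, against 0.853% of all genes tested. The median of the 78 genes was between -0.15 and -0.0034 when single libraries or both libraries of a culture were left out. Without the RNA library of WT replicate 2 it was -0.0039 (all genes tested -0.0093), with 39 of 78 above 0. Without that of WT replicate 1 it was -0.13 (all genes tested -0.036), with 10 of 78 above 0. The negative lean therefore depended on WT replicate 2, and without both libraries of DKO replicate 1 it also shrank, to 38 of 78 above 0. Neither the large subunit (median -0.043) nor the small subunit (median -0.053) held a call.

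In 3 of 78 genes (3.85%, against 1.8% of all genes tested) the DKO values lay on opposite sides of the WT values in the 2 assays. Mrps22, a small-subunit protein mutated in a human mitochondrial disease, had 77.6 and 69.3 CPM in DKO footprints, against 69.2 and 64.9 CPM in WT footprints, and 39.4 and 38.7 CPM in DKO RNA, against 43.5 and 40.3 CPM in WT RNA. Mrpl16 had 58.4 and 61.0 CPM in DKO footprints, against 58.0 and 55.6 CPM in WT footprints, and 27.3 and 27.4 CPM in DKO RNA, against 30.7 and 29.0 CPM in WT RNA. Mrpl37 had 81.1 and 78.5 CPM in DKO footprints, against 81.9 and 85.6 CPM in WT footprints, and 37.2 and 34.1 CPM in DKO RNA, against 33.3 and 31.2 CPM in WT RNA. Mrps22 and Mrpl16 were thus higher in DKO footprints and lower in DKO RNA, and Mrpl37 the other way round. The gaps between the groups were small, and the interaction did not pass for any of them.

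The largest pattern in these genes was common to both genotypes: they held more of the footprints than of the RNA. Footprints over RNA, fitted as the mean of both genotypes, were called higher for 55 of 78 genes (70.5%, against 36.5% of all genes tested) and lower for 3 (3.85%, against 38.2%). The median log2 value was 0.55, a 1.46-fold excess, against -0.014 over all genes tested, and 68 of 78 values were above 0 (87.2%, against 49.4%). Footprint CPM exceeded RNA CPM in all 4 cultures for 60 genes (76.9%, against 41.1%) and lay below it in all 4 for 3 (3.85%, against 42.1%). CPM are shares of a library, so the comparison is with the average gene and not with an absolute rate of translation. Footprints come mainly from coding sequence, although the counts were not restricted to it, while RNA comes from whole transcripts.

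The scaling between the assays sets the zero of this scale. With TMM scaling within each assay the median over all genes tested was -0.24, against -0.014 in the main fit. Of the 78 genes, 47 were then higher and 12 lower, with a median of 0.31. Counting only isoforms annotated as protein-coding gave 47 higher and 18 lower with a median of 0.55.

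The excess was close in size in the 4 cultures. The median log2 ratio of footprint to RNA CPM was 0.56 and 0.60 in the DKO cultures, against 0.59 and 0.63 in the WT cultures. In the fit, 52 genes were called higher and 2 lower in DKO (all genes tested 32.1% and 33.3%), against 53 higher and 2 lower in WT (31.4% and 33.8%). Across the 78 genes the DKO and WT values correlated with Pearson's r of 0.985 and Spearman's rho of 0.986, as a description of genes that share libraries and lengths. The order of the genes on this scale was thus nearly the same in both genotypes.

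**Figure D3:**
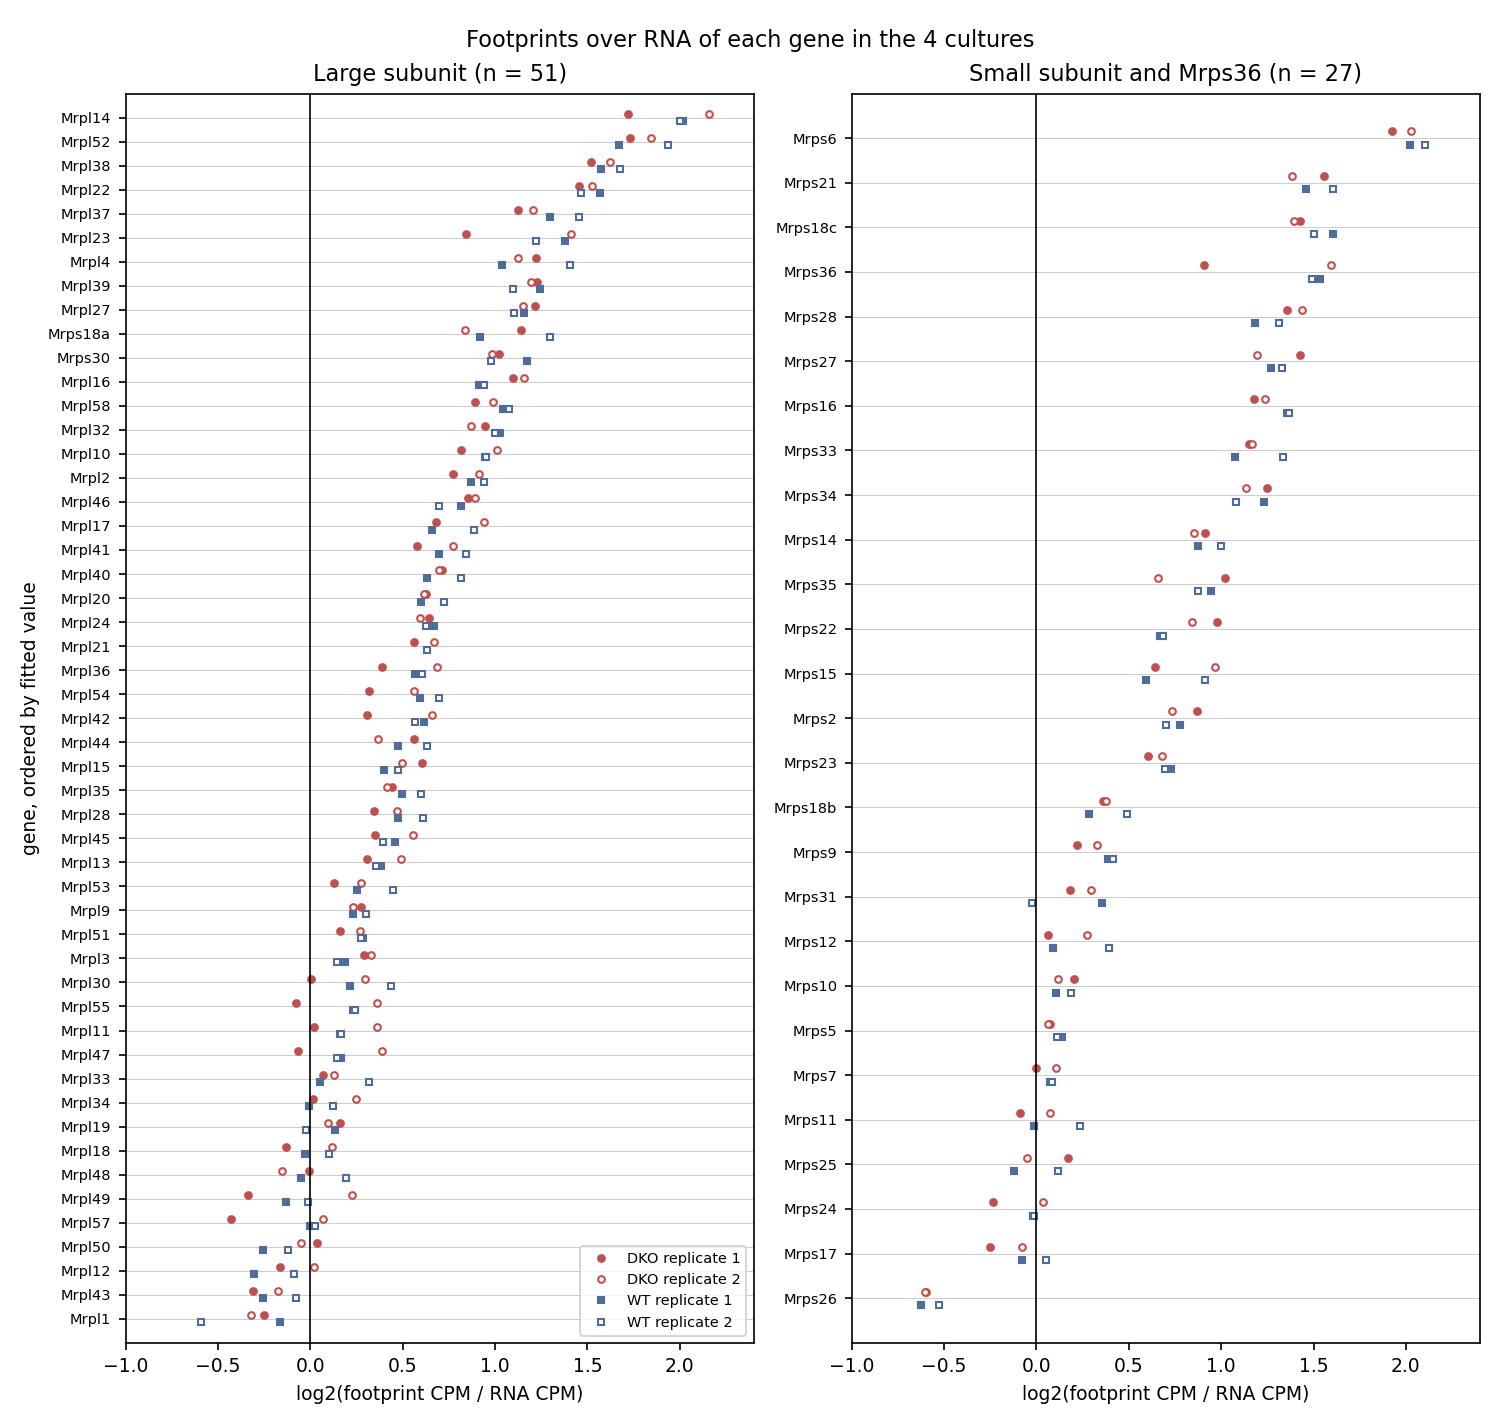
log2 ratio of footprint CPM to RNA CPM (x axis) for each gene (y axis, ordered by the fitted value) in each of the 4 cultures, large subunit left, small subunit and Mrps36 right. Red circles are DKO and blue squares WT, filled for replicate 1 and open for replicate 2. The genes spread from -0.59 to 2.02 in the fit, and 60 of 78 have all 4 points to the right of 0.

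Mrps6, a protein of the small-subunit platform, led the list. It had 145.7 and 147.8 CPM in DKO footprints and 160.1 and 160.1 CPM in WT footprints, against 38.4 and 36.2 CPM in DKO RNA and 39.4 and 37.2 CPM in WT RNA. Footprints were above RNA in every culture, with a log2 value of 2.02 ± 0.06 (4.05-fold, edgeR adjusted p = 4.2e-10). Its locus (ENSMUSG00000039680, chromosome 16, 92058270 to 92112227, GRCm38) overlaps Slc5a3 on the same strand, so reads may have been divided between the 2 genes.

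Mrpl14, the partner of the assembly factor Malsu1 on the large subunit, had 57.7 and 65.8 CPM in DKO footprints and 56.2 and 59.0 CPM in WT footprints, against 17.5 and 14.7 CPM in DKO RNA and 13.9 and 14.7 CPM in WT RNA. Its RNA was the lowest of the 78 by CPM, while its footprints were below, but near, the median of 71.0 CPM. The log2 value was 1.97 ± 0.08 (adjusted p = 1.82e-09, edgeR). Mrpl14 (ENSMUSG00000023939) lies on chromosome 17, 45686322 to 45698495, and overlaps Tmem63b on the other strand.

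Mrpl52 followed at 1.79 ± 0.09, Mrpl38 at 1.60 ± 0.08, Mrpl22, which lines the exit tunnel, at 1.51 ± 0.07 and Mrps21 at 1.504 ± 0.09, each with an adjusted p under the threshold of 0.05 in the edgeR test and with footprints above RNA in every culture. Mrps21 had 155.4 and 122.1 CPM in DKO footprints and 133.8 and 145.9 CPM in WT footprints, against 52.8 and 46.7 CPM in DKO RNA and 48.6 and 47.9 CPM in WT RNA. It was both the gene with the most footprints per coding kilobase and among the 5 with the most RNA per kilobase.

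The 3 genes called lower were Mrps26, Mrpl1 and Mrpl43. Mrps26 had 70.4 and 67.9 CPM in DKO footprints and 71.4 and 73.7 CPM in WT footprints, against 106.4 and 103.2 CPM in DKO RNA and 110.0 and 106.0 CPM in WT RNA. All 4 footprint values lay below all 4 RNA values, with a log2 value of -0.59 ± 0.06 (adjusted p = 3.2e-06, edgeR). Mrpl1 had -0.32 ± 0.10 (adjusted p = 0.0104, edgeR) and Mrpl43 -0.20 ± 0.07 (adjusted p = 0.0143, edgeR). These 2 calls were lost in some alternatives. Mrpl1 lost it in 3, namely without DKO footprint replicate 2 and without either DKO culture in turn (adjusted p 0.0549 to 0.0926, edgeR), and Mrpl43 in 6, among them without WT RNA replicate 1 or DKO RNA replicate 1 and in DESeq2 (adjusted p 0.0587 to 0.1715). The 3′ UTRs of the major coding isoforms of all 3 were above the median of 319 nt, at 3641 nt in Mrps26, 2375 nt in Mrpl1 and 873 nt in Mrpl43. In Mrps26 this isoform took 5.38% of the footprint counts and 47.7% of the RNA counts, and the rest went to an isoform of 1057 nt.

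The length of the 3′ UTR moved with the ratio. Over the 77 genes with a coding isoform the log2 value correlated with log2 3′ UTR length at r of -0.468 and rho of -0.473, and over all genes tested at -0.270 and -0.379. With coding length the values over these genes were -0.0169 and 0.0138, and with 5′ UTR length -0.0980 and -0.0881. These are correlations across genes of the same libraries. The lengths here and in the per-base values below are those of the coding isoform with the most RNA counts. The counts are sums over all isoforms of a gene, also where most of them were assigned to other, shorter isoforms. When footprints were divided by coding length and RNA by transcript length, an alternative added after seeing the data, the median log2 ratio was 1.75 and all 77 genes lay above 0, against a median of 1.05 and 86% above 0 over all genes tested.

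The subunits and classes overlapped widely. The median log2 value was 0.54 in the large subunit (37 of 51 called higher, 2 lower) and 0.72 in the small subunit (17 of 26 higher, 1 lower). It was 0.49 in the 48 genes with a bacterial counterpart and 0.68 in the 29 specific to mitochondria. The 6 genes with the spelling shown above at the start codon had a median of 0.93, against 0.52 in the other 70 with a complete start codon, and 5 of the 6 were called higher. On the per-base scale this gap was absent, with medians of 1.758 in the 6 and 1.757 in the other 70. By CPM they ran from 0.15 ± 0.07 for Mrps10, which did not pass (adjusted p = 0.0685, edgeR), to 1.60 for Mrpl38. In the genotype comparison the 6 had medians of 0.10 in footprints and 0.12 in RNA with no call.

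Within the S18 group, Mrps18c had 1.48 ± 0.07, Mrps18a 1.05 ± 0.09 and Mrps18b 0.38 ± 0.08 on this scale. All 3 passed the test, with adjusted p of 3.51e-09, 9.01e-07 and 0.000687 in that order (edgeR), and the call of Mrps18b was lost with TMM within each assay (0.15, adjusted p = 0.0973). Of the stalk proteins, Mrpl10 stood at 0.93 ± 0.07, while Mrpl11 at 0.19 ± 0.09 (adjusted p = 0.0683) and Mrpl12 at -0.13 ± 0.08 (adjusted p = 0.149) did not pass in edgeR. Both non-calls depended on the processing. Mrpl11 was -0.043 with TMM scaling within each assay. It passed as higher without a filter (0.24, adjusted p = 0.0286) and with the culture as a replicate block (0.18, adjusted p = 0.0210), both in edgeR. Mrpl12 passed as lower with TMM within each assay (-0.36, adjusted p = 0.00116) and with protein-coding isoforms alone (-2.01, adjusted p = 1.21e-06), both in edgeR. An isoform not annotated as coding took 76.3% of the Mrpl12 footprints and 10.9% of its RNA. Mrpl58, a peptidyl-tRNA hydrolase built into the large subunit, stood at 1.001 ± 0.08, and Mrpl45, which lies at the exit of the tunnel near the membrane, at 0.44 ± 0.07.

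Set beside other gene groups by CPM, the mitochondrial ribosomal proteins stood between nuclear-encoded subunits of oxidative phosphorylation and the cytosolic ribosomal proteins. The median log2 value of footprints over RNA was 1.02 in 79 oxidative phosphorylation genes (73 called higher, 1 lower) and 0.19 in 76 cytosolic ribosomal protein genes (37 higher, 15 lower). On the per-base scale the medians were 1.749 in the mitochondrial ribosomal proteins, 1.754 in oxidative phosphorylation and 0.83 in the cytosolic ribosomal proteins. The gap to oxidative phosphorylation by CPM was thus not seen in the per-base medians, which rest on the length of 1 coding isoform for each gene. In the 61 mitochondrial ribosomal protein genes with at most 50% of footprints on isoforms not annotated as coding, the per-base median was 1.66. That split was not made for oxidative phosphorylation, and the differences between the gene groups were not tested. By CPM, the 25 assembly and rRNA modification factors tested had a median of -0.17 (8 higher, 12 lower), the 14 mitochondrial translation factors 0.33 (8 higher, 3 lower) and the 16 mitochondrial aminoacyl-tRNA synthetases -0.12 (3 higher, 7 lower). Of 5 further subunits under other symbols, Chchd1 at 0.99 ± 0.07, Dap3 at 0.61 ± 0.06 and Aurkaip1 at 0.27 ± 0.07 were higher, Ptcd3 at -0.33 ± 0.07 was lower, and Gadd45gip1 at -0.16 ± 0.07 did not pass (adjusted p = 0.0524, edgeR).

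**Figure D4:**
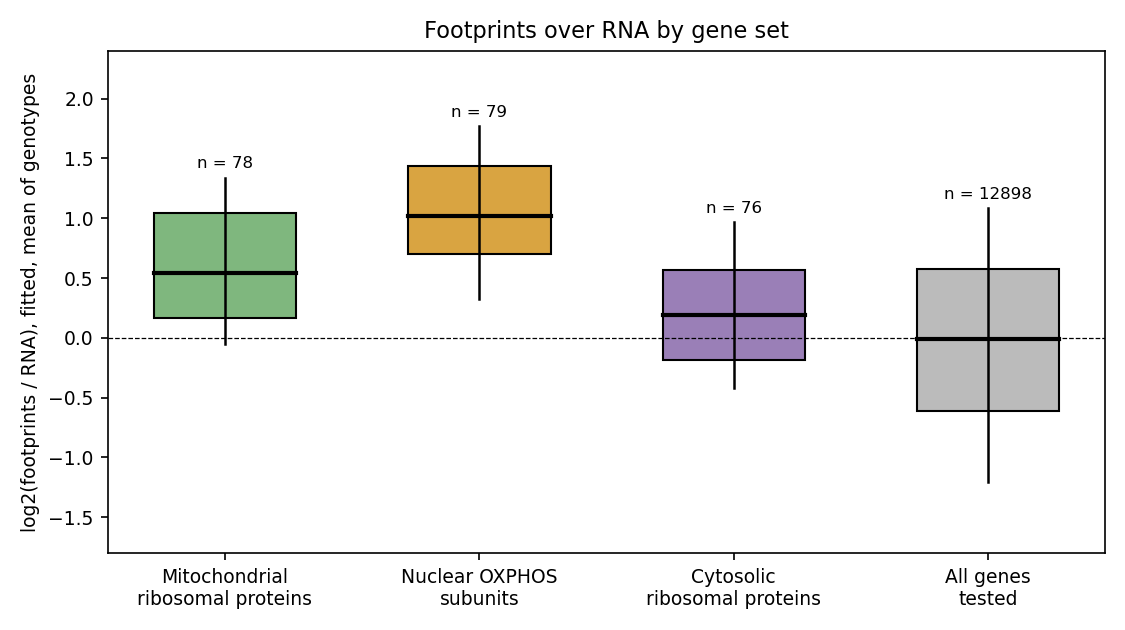
Fitted log2 ratio of footprints to RNA, mean of both genotypes, for 4 gene sets. Boxes span the 25th to 75th percentile, the thick line is the median and the whiskers reach the 10th and 90th percentile. The median is 0.55 for the mitochondrial ribosomal proteins, 1.02 for oxidative phosphorylation, 0.19 for cytosolic ribosomal proteins and -0.014 for all genes tested.

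None of these related genes was called between the genotypes. Rcc1l, an assembly factor of the large subunit, came closest, with 18.3 and 17.2 CPM in DKO footprints, against 13.9 and 12.2 CPM in WT footprints. Both DKO values lay above both WT values, at 0.44 ± 0.13 on the log2 scale (edgeR, adjusted p = 0.837). Its RNA stood at 26.95 and 28.5 CPM in DKO, against 28.6 and 25.8 CPM in WT, and overlapped. Gfm1, the elongation factor that moves the ribosome along the mRNA, had 34.96 and 36.1 CPM in DKO RNA, against 39.7 and 42.6 CPM in WT RNA, which gave -0.21 ± 0.09 (adjusted p = 0.851, edgeR).

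The assignment of footprints to isoforms touches many of these genes. In 17 of 78 (21.8%, against 12.1% of all genes tested) more than 50% of the footprint counts were assigned to isoforms not annotated as protein-coding, such as retained introns, processed transcripts and targets of nonsense-mediated decay. In RNA this held for 8 of 78 (10.3%, against 7.75%). Summed over the 78 genes these isoforms took 25.7% of the footprint counts and 18.02% of the RNA counts. Mrpl27 had 88.8% of its footprints on such isoforms and 0.871% of its RNA, Mrps24 99.9% and 69.4%, and Mrps26, the gene with the lowest ratio, 94.6% and 52.3%. Mrpl32 has only an isoform annotated for nonsense-mediated decay in the table.

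**Figure D5:**
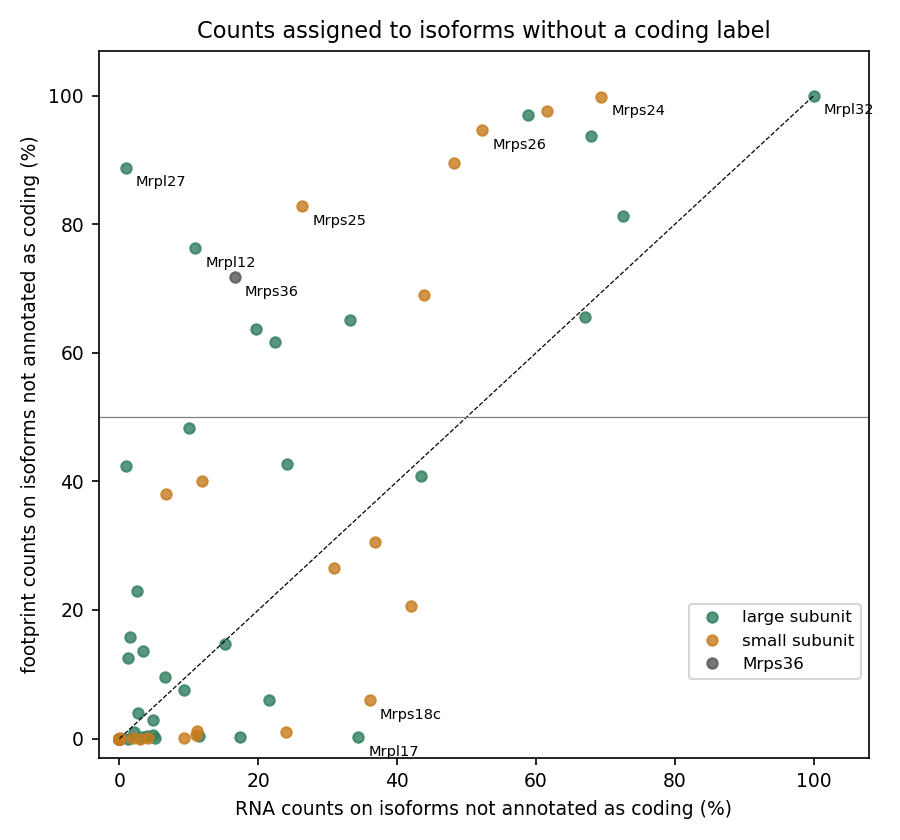
Percent of a gene's RNA counts (x axis) and footprint counts (y axis) assigned to isoforms not annotated as protein-coding, summed over the 4 libraries of each assay, 1 point for each of the 78 genes. The dashed line marks equal shares and the grey line 50% of footprints. Points above the grey line number 17, and most of them lie above the dashed line.

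Short isoforms without a full coding sequence share exons with the coding ones, and short reads do not tell them apart well. The 17 genes had a median log2 value of 0.16 for footprints over RNA, against 0.68 in the other 61. On the per-base scale the order was reversed, with medians of 2.28 in 16 of the 17 and 1.66 in the other 61. The part of the assignment in these differences was not tested. The reading of whole-gene sums does not depend on which isoform took a read. Of the 78 genes, 22 overlap another gene of the table, 3 of them on the same strand (Mrps6, Mrps24 and Mrps34) and 20 on the opposite strand, and their counts are uncertain to that extent.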

How the data were processed

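The submitters' processing notes name kallisto, Bowtie, Trimmomatic and FastQC but no versions. Settings, genome build and use of strand: not given in the sources used here. The deposited values are estimated counts for each Ensembl transcript and all whole, so nothing was rounded. kallisto divides reads among isoforms and similar genes. Footprints were prepared with the ARTseq kit, per the labels' protocols.

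Of 60528 transcripts, 60444 matched GENCODE M21 (99.86%) and were summed per gene. The rest held 0.076% to 0.151% of a library. All 8 libraries were fitted in 1 edgeR 4.0.16 quasi-likelihood model (limma 3.58.1, R 4.3.3) with 4 group means, TMM scaling and robust dispersions, leaving 4 residual degrees of freedom. Genes passed filterByExpr (minimum count 10) in both assays. Benjamini-Hochberg adjusted p under 0.05 over all 12898 genes was called. SE is the log2 value over the root of F. The procedure was tested on simulated data. Summaries used Python 3.11.15.

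Named genes were called members, the 4 per direction with the smallest p in each genotype contrast, the 6 highest and 6 lowest called for footprints over RNA, the 5 highest and lowest by RNA level, those opposite between assays, and a few by role. Members, lists and rules were chosen with earlier results of these data known. Replicate differences correlated between the assays at 0.605 in WT and 0.211 in DKO. The pairing into cultures was read from shared codes and is not stated in the labels, so culture entered as a replicate block in an alternative alone. WT and DKO libraries of 1 number share only the number.

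The alternatives changed the scaling (RLE, or TMM by assay), the filter (none, or a mean count of 50), the tool (DESeq2 1.42.0), the isoforms (protein-coding alone), the blocks and the libraries (1 assay, or each library or culture left out). Crossed blocks, footprints per coding length and the TISU consensus were added after seeing the data.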

Additional observations from a re-analysis of the deposited data

Results flagged for a closer look

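In 3 of the 78 genes (3.85%, against 1.8% of all genes tested) every DKO library moved one way in footprints and the opposite way in RNA relative to both WT libraries. The log2 change of footprints relative to RNA was 0.23 for Mrps22, 0.20 for Mrpl16 and -0.22 for Mrpl37. The interaction, which tests the difference itself, gave an adjusted p of 0.9997 for each in edgeR, so none passed. Footprints and RNA of 1 culture are not independent of each other.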

How the results depend on the processing

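No alternative called any of the 78 genes between the genotypes in footprints, RNA or translational efficiency. With single libraries left out, the median log2 value ranged from -0.021 to 0.033 in footprints, from -0.011 to 0.13 in RNA and from -0.13 to -0.0039 in translational efficiency. Without both libraries of a culture it was 0.017 (DKO replicate 1), 0.081 (DKO replicate 2), 0.13 (WT replicate 1) and -0.015 (WT replicate 2) in RNA. In translational efficiency it was -0.0034 (DKO replicate 1), -0.078 (DKO replicate 2), -0.15 (WT replicate 1) and -0.010 (WT replicate 2). Without both libraries of WT replicate 1 the median over all genes tested was 0.041 in RNA and -0.041 in translational efficiency.

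Footprints over RNA were called higher for 53 to 57 genes and lower for 2 to 4 with single libraries left out, with medians of 0.54 to 0.62. The count called lower was 12 with TMM within each assay, 18 with protein-coding isoforms alone and 1 without both libraries of DKO replicate 1. The median was 0.31 with TMM within each assay, 0.60 without a filter and 0.52 with a mean count of at least 50. It was 0.62 without both libraries of DKO replicate 1, 0.59 without those of WT replicate 1 and 1.75 per base. The per-base medians, which rest on the length of 1 coding isoform for each gene, did not show the gaps to oxidative phosphorylation and between start-codon groups. The median RNA level was 71.5 TPM over the longest coding transcript, and that of footprints 87.6 TPM over whole transcripts and 91.6 TPM over the longest coding sequence.

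Among named genes the sign turned for Mrps36 in footprints (0.087) and in footprints over RNA (-0.11) and for Mrpl3 in RNA (0.11), all 3 with protein-coding isoforms alone, for Mrps36 in translational efficiency without both libraries of DKO replicate 1 (0.079, against -0.61 without DKO replicate 2), and for Mrpl11 in footprints over RNA with TMM within each assay (-0.043). The causes were not tested.

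With the culture as a replicate block, footprints over RNA gave 59 higher and 3 lower (median 0.55) and translational efficiency no call (median -0.050). With the replicate number as a block the medians were 0.00075 in footprints and 0.045 in RNA, again with no call, and crossed numbers gave no call. With 2 libraries a group, the median SE was 0.10 on the log2 scale in both assays, which limits what could be resolved.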
